A study of Mus musculus with 12 samples.

Results

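The Jun, Fos and immediate early genes followed here are 10 transcription factor or response genes, namely Jun, Junb, Jund, Fos, Fosb, Fosl2, Egr1, Atf3, Ier2 and Myc, of 38293 genes counted in mouse hearts. They were matched by symbol to the gene identifiers, and they were selected on results of these data, the counts of WT sham and WT IR hearts, among them a low Jund after injury. Every value of the 10 genes in that injury comparison is therefore given as a description, without a test. The hearts came from 3 WT sham mice (C57Bl/6J, sham surgery, with no day given in the labels), 3 WT IR mice (C57Bl/6J, 14 days after ischaemia-reperfusion, in which a coronary artery is tied and reopened), 3 Zeb2 WT IR mice (wild-type littermate controls, 14 days after IR) and 3 Zeb2 cTg IR mice (14 days after IR), and the labels give C57Bl/6J for these as well. The Zeb2 cTg genotype combines a Zeb2 transgene behind a floxed stop, on both Rosa26 alleles, with a Cre recombinase under the Myh6 promoter, so the transgene is meant to be active in cardiomyocytes and in no other cells of the heart, and whether the littermates carry Cre is not stated in the sources used here. The study used mice of 8 to 9 weeks. Its methods give both sexes in the general part and males in the part on the transgenic models. Each library came from 1 animal. The labels give the left ventricle as tissue, the design text the infarct with its border zone and the methods the remote zone, and the files do not settle which was taken.

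The libraries held between 20215781 and 36816818 counts, of which 60.6% to 73.5% lay on the mitochondrial genome. Levels are given as CPM, the usual library-scaled counts, with TMM scaling within a table, and 1 CPM stood for 17.2 to 37.8 counts. Each value is the mean ± SD of 3 libraries unless single libraries are named, listed as replicate 1, 2 and 3. The summed level of 18 cardiomyocyte markers was 52534 to 78739 CPM over the 12 libraries, so heart muscle RNA was present in each. Zeb2 itself was at 59.8 ± 6.43 CPM in Zeb2 WT IR hearts and 57 ± 1.59 CPM in those labelled Zeb2 cTg IR (log2 fold change −0.07, SE 0.12, adjusted p = 0.750 by edgeR), so the counts did not show the higher level that this label implies. The study reports more Zeb2 RNA by qPCR and more ZEB2 protein by immunofluorescence in Zeb2 cTg hearts at this time.

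JUN and FOS proteins are the subunits of AP-1, a dimeric transcription factor that binds the palindrome TGANTCA. JUN proteins can pair with each other, whereas FOS proteins need a JUN partner, and both kinds hold a basic region that grips the DNA next to a leucine zipper that joins the subunits. Many of these genes are immediate early genes, transcribed within minutes of a growth or stress signal from factors already present in the cell, and in the heart they are known as early responders to pressure overload and ischaemia. JunD differs from c-Jun and JunB in that it is made in resting cells, and it is known as a brake on cardiac hypertrophy.

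In 7 of the 10 genes (Jun, Junb, Jund, Fos, Fosb, Fosl2 and Atf3) the coding sequence held the signature of that basic region, in which asparagine, a pair of alanines, cysteine and arginine stand at fixed distances. It is shown here because it is the part with which these proteins touch DNA, and what the 7 genes have in common that Egr1, Ier2 and Myc lack. The 51 bases were read from GENCODE M21 transcripts (GRCm38), and the capitals mark the codons of the signature.
Jun (chr4:95050441-95050491, minus strand): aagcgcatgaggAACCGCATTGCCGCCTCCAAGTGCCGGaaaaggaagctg 
Junb (chr8:84977569-84977619, minus strand): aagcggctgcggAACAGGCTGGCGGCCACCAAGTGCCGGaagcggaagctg 
Jund (chr8:70699859-70699909, plus strand): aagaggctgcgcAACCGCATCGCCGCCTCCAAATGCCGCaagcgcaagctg 
Fos (chr12:85475625-85475675, plus strand): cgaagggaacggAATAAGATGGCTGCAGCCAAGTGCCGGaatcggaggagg 
Fosb (chr7:19306583-19306633, minus strand): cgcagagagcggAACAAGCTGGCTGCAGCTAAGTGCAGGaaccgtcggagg 
Fosl2 (chr5:32150454-32150504, plus strand): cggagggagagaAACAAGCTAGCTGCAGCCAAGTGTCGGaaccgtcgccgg 
Atf3 (chr1:191172399-191172449, minus strand): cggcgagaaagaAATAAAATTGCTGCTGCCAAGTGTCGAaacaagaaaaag
Between the 3 Jun genes 40 of the 51 bases were the same in each pair, and Fos and Fosb shared 41, whereas Jund and Atf3 shared 24. Egr1 (a zinc finger factor), Ier2 and Myc (a helix-loop-helix zipper factor that pairs with Max) did not hold the signature.

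Of the 10 genes, 9 had enough counts to be fitted in both tables, and Fosb, with 17 to 35 counts in a whole group, did not. In WT IR against WT sham hearts 2 of the 9 were higher and 7 lower, with a median log2 fold change of −0.48 against 0.01 over all 13756 genes fitted. Over all genes 20.8% were called, that is, had an adjusted p under 0.05 in edgeR's quasi-likelihood test, 11.0% higher and 9.74% lower (1519 and 1340 genes, against 3883 and 256 when libraries were scaled to cardiomyocyte markers and 1186 and 1597 with a correction for GC content). The WT sham and WT IR libraries did not overlap in 5 of the 9 genes (Myc, higher, and Jund, Jun, Junb and Fosl2, lower), and they did not overlap in 39.8% of all genes. Since this contrast served to choose the genes, nothing is read from these counts.

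In mice labelled Zeb2 cTg IR, 8 of the 9 genes lay above Zeb2 WT IR and 1, Egr1, below, with a median log2 fold change of 0.24 against 0.01 over all 13018 genes fitted. With cardiomyocyte marker scaling Jun and Ier2 lay below as well, and with the GC correction Jun, Jund and Ier2 did. None of the 9 was called by edgeR, DESeq2 or limma-voom, whereas edgeR called 3.64% of all genes, 2.14% higher and 1.51% lower (278 and 196 genes, against 105 and 222 with cardiomyocyte marker scaling). At an unadjusted p under 0.05 there were 2, Jund and Junb. By p these ranked 1478 and 2663 among all 13018 genes fitted, so at least 2663 genes passed that cut, and nothing is read from the 2. The libraries of the groups did not overlap in 2 of the 9 genes, Jund and Myc, and in 26.2% of all genes. The injury and the transgene comparisons share no libraries, and each was fitted within its own table, so levels set side by side across tables rest on separate scalings.

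**Figure D1:**
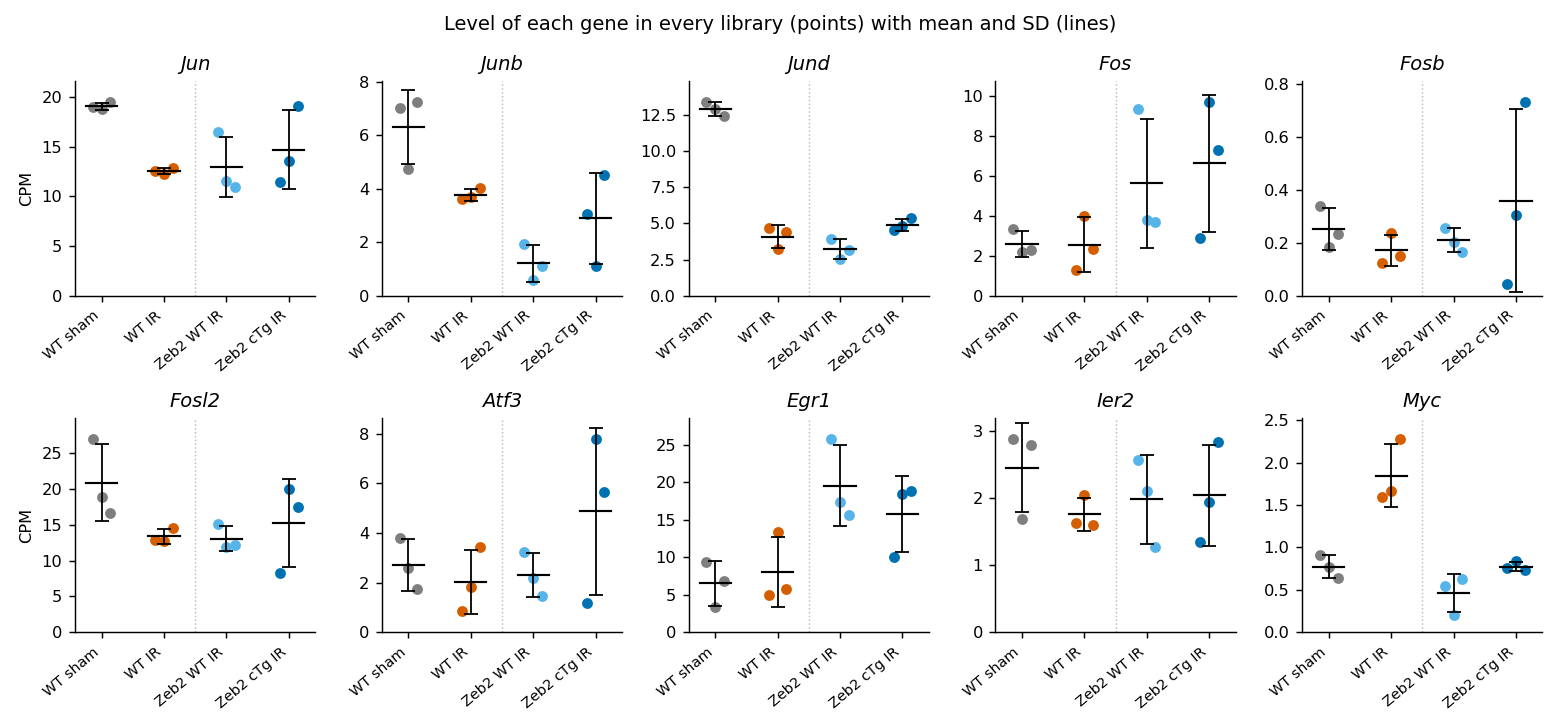
CPM (y axis, linear, from 0) of the 10 genes in each of the 12 libraries, by group (x axis), with the mean as a horizontal line and the SD as a bar (n = 3). The dotted line separates the tables, which were scaled on their own. Jund fell into separate ranges in WT sham (12.5 to 13.4) and WT IR (3.20 to 4.66), whereas Fos, Atf3 and Egr1 differed widely between mice of 1 group, up to 6.64-fold for Atf3 in Zeb2 cTg IR.

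Jund (chr8:70698949-70700616, plus strand, a single-exon gene) was at 13.4, 12.9 and 12.5 CPM in the WT sham libraries and at 4.66, 3.20 and 4.40 CPM in the WT IR libraries. All 3 injured hearts were lower than all 3 sham hearts by a wide margin, and the log2 fold change was −1.67 (SE 0.14), a 3.19-fold lower level. This low level is what the choice of the genes used. Leaving out any 1 library moved the value to between −1.79 and −1.51. In the other table Jund was at 3.92, 2.55 and 3.17 CPM in Zeb2 WT IR and at 4.53, 4.81 and 5.36 CPM in the hearts labelled Zeb2 cTg IR. These 6 libraries also did not overlap, but the log2 fold change of 0.61 (SE 0.20, 95% interval 0.16 to 1.05) did not pass the adjustment over all genes (edgeR, adjusted p = 0.110).

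Jund is among the most GC-rich transcripts of the heart, and fold changes followed GC content in both tables. Its longest transcript is 67.1% G and C, only 11 of 13609 genes with a GC value were higher, and its richest stretch of 100 coding bases, printed to show how rich the transcript is, was 86% G and C. The sequence lies at chr8:70699626-70699725 (GRCm38, plus strand).
Jund: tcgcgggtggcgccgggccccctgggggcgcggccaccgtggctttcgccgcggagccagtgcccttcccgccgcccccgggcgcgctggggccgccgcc
Across genes the log2 fold change of WT IR against WT sham went down with GC content (Spearman's rho −0.29, 13609 genes), and that of the hearts labelled Zeb2 cTg IR against Zeb2 WT IR went up (rho 0.55, 12892 genes), which is across genes within each table and not across independent replicates. With a correction for GC content the Jund values became −0.52 (SE 0.10) in WT IR hearts and −0.0034 (SE 0.18) in mice labelled Zeb2 cTg IR. The value in WT IR hearts kept its direction at a much smaller size, and that of the transgene comparison came to lie at 0. The correction at this end of the GC scale rests on few genes, and the part that GC content plays in the Jund values was not tested beyond it.

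Jun (chr4:95049034-95052222, minus strand, also a single exon), the founding AP-1 subunit and a target of the Jun N-terminal kinases, was at 19.0, 18.7 and 19.4 CPM in WT sham and at 12.5, 12.2 and 12.8 CPM in WT IR. The highest library was 1.04 times the lowest in WT sham and 1.05 times in WT IR, and the log2 fold change between these narrow ranges was −0.60 (SE 0.07). With the GC correction it was −0.58, so of the 3 Jun genes Jun was the one whose injury value moved least. The groups of the other table were wider. Jun was at 16.4, 11.5 and 11.0 CPM in Zeb2 WT IR and at 11.4, 13.6 and 19.1 CPM in the hearts labelled Zeb2 cTg IR, and the ranges overlapped (0.19, SE 0.22, adjusted p = 0.625 by edgeR).

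Junb (chr8:84974484-84978718, minus strand), an AP-1 subunit that often opposes c-Jun in growth control, was at 7.0, 4.72 and 7.22 CPM in WT sham and at 3.59, 3.68 and 4.03 CPM in WT IR (−0.73, SE 0.17). All injured hearts were below all sham hearts, and with the GC correction the value was −0.27. In Zeb2 WT IR it was at 1.94, 0.567 and 1.10 CPM, from 53, 14 and 33 counts. Hearts labelled Zeb2 cTg IR were at 3.06, 1.11 and 4.49 CPM, so replicate 2 of these lay within the range of the controls. The log2 fold change was 1.27 (SE 0.52, 95% interval 0.10 to 2.43, adjusted p = 0.179 by edgeR), and 0.68 with the GC correction (SE 0.35, adjusted p = 0.281 by edgeR). Without that replicate 2 and without the GC correction it was 1.64 with an adjusted p of 0.0219 by edgeR, against a range of 0.0219 to 0.541 over all alternatives. In that fit 2419 of all genes were called.

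The Jun genes together made up less RNA after injury, and in counts without a GC correction Jund took a smaller share of it. Summed per kb of exon, the 3 genes were at 16.5 ± 0.69 CPM per kb in WT sham and 8.02 ± 0.57 in WT IR. Jund held 47.1% ± 2.37 of the sum in WT sham and 30.4% ± 3.90 in WT IR. The ratio of Jund to Jun counts was 0.707, 0.691 and 0.641 in WT sham and 0.372, 0.261 and 0.343 in WT IR. This ratio does not depend on library scaling, and it is given without a GC correction. With the GC correction the log2 fold changes of Jund (−0.52) and Jun (−0.58) were of similar size. The part of GC content in the ratio and in the share was not tested. The ratio was 0.239, 0.222 and 0.289 in Zeb2 WT IR and 0.396, 0.355 and 0.280 in mice labelled Zeb2 cTg IR, where the groups overlapped (exact permutation test, two-sided, p = 0.2, where 0.1 is the smallest p that 3 against 3 allow). Over the 10 sums, shares and ratios compared between these last groups the exact p lay between 0.2 and 1.0, and between 0.6 and 1.0 after Benjamini-Hochberg adjustment.

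**Figure D2:**
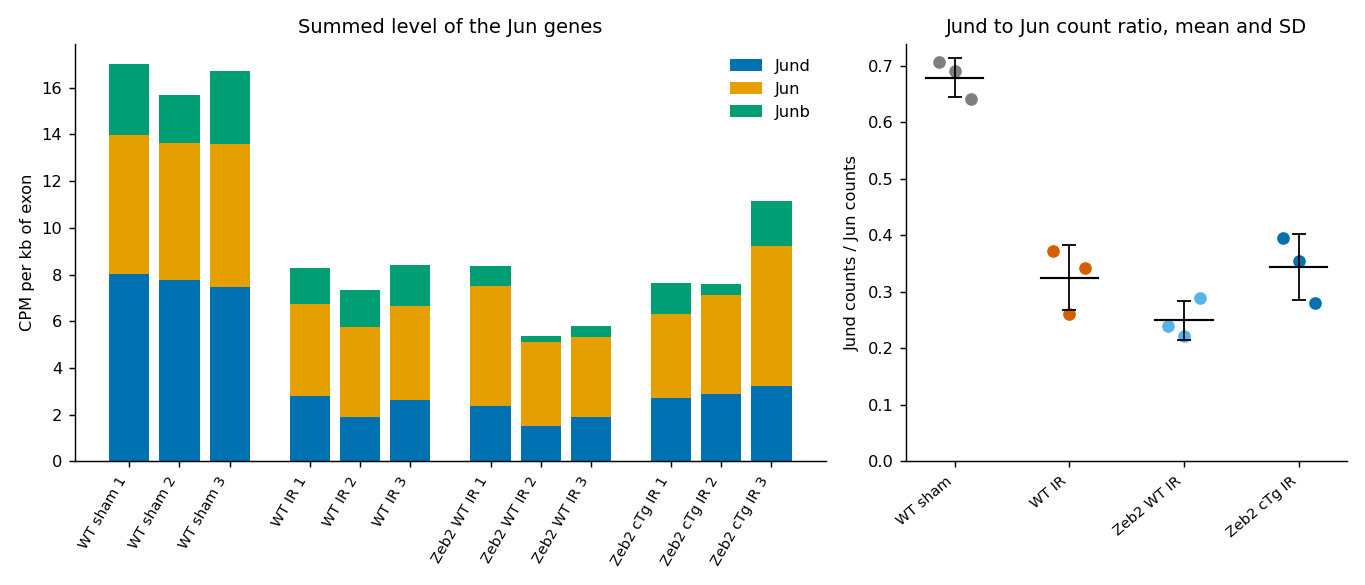
Left, levels of Jund, Jun and Junb stacked (y axis, CPM per kb of exon, from 0) in each of the 12 libraries (x axis). Right, the ratio of Jund counts to Jun counts by group with mean and SD (n = 3). The sums of the WT sham libraries (15.7 to 17.0) lie above those of the WT IR libraries (7.36 to 8.41), and the ratio, from counts without a GC correction, is 0.641 or more in WT sham and 0.372 or less in WT IR. With that correction Jund (−0.52) and Jun (−0.58) had similar log2 fold changes, and no corrected ratio is shown.

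Fos (chr12:85473890-85477273, plus strand), the prototype immediate early gene, was at 3.33, 2.18 and 2.27 CPM in WT sham and at 1.28, 3.99 and 2.35 CPM in WT IR. The injured hearts spanned the whole sham range on both sides, and the log2 fold change was −0.01 (SE 0.36). In the other table Fos was at 9.32, 3.80 and 3.70 CPM in Zeb2 WT IR and at 2.89, 9.66 and 7.30 CPM in the hearts labelled Zeb2 cTg IR. Each of these groups held a low and a high mouse, and the difference of 0.24 (SE 0.45, 95% interval −0.77 to 1.26, adjusted p = 0.768 by edgeR) lay within that spread.

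Fosl2 (chr5:32135801-32157842, plus strand), which encodes Fra-2, an AP-1 subunit linked to fibrosis, was at 27.0, 18.9 and 16.7 CPM in WT sham and at 12.9, 12.7 and 14.5 CPM in WT IR (−0.65, SE 0.16, and −0.69 with the GC correction). The groups did not overlap, although the highest sham library lay far from the others. It was at 15.1, 11.9 and 12.2 CPM in Zeb2 WT IR and at 8.34, 20.0 and 17.5 CPM in mice labelled Zeb2 cTg IR (0.23, SE 0.28, adjusted p = 0.633 by edgeR). Fosb (chr7:19302696-19310051, minus strand), whose product is best known from neurons, was near the lower end of what these libraries can show. It had 9, 6 and 4 counts in the WT sham libraries, 4, 9 and 4 in WT IR, 7, 5 and 5 in Zeb2 WT IR and 1, 8 and 26 in the hearts labelled Zeb2 cTg IR, so no difference between groups was detectable at this depth.

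Promoter windows of 250 bases before to 50 bases after the start were matched in RefSeq (GRCm38.p6) for 7 of the 10 genes, all but Egr1, Ier2 and Myc. The 250 bases before the start of Fos and of Jun are printed because Fos is the prototype immediate early gene and Jun its usual partner, and because Jun varied little between the WT mice of a group and Fos widely. The capitals mark the letters TGACG (the core of a cAMP response element), TGACATCA (the proximal AP-1 and ATF site known from the Jun promoter) and TATAAA (the box that marks many regulated promoters), searched on both strands.
Fos (chr12:85473640-85473889, plus strand): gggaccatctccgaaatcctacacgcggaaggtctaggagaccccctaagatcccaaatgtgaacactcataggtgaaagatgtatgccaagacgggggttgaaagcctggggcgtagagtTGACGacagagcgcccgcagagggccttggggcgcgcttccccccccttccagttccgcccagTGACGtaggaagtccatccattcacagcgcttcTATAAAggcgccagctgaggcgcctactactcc 
Jun (chr4:95052223-95052472, minus strand): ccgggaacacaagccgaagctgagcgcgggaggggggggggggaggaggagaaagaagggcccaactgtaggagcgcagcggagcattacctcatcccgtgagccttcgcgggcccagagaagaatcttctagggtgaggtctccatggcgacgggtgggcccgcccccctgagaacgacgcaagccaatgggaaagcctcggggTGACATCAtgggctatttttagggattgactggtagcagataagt
TGACG is part of the full element TGACGTCA, and none of the matches printed overlap. Fos held TGACG at 129 and 66 bases before the start and TATAAA at 33 bases before it. Jun held TGACATCA at 45 bases before the start and neither of the other motifs. Among all 32851 promoter windows 20.8% held TGACG, 3.62% TGACATCA and 13.6% TATAAA. Junb, Fosb and Atf3 held TGACG as well, and GGGCGG (an Sp1 site, in 35.7% of all windows) in Jun, Fos, Fosb, Fosl2 and Atf3. The full element TGACGTCA (1.79% of all windows), TGANTCA (7.81%), the CArG box bound by serum response factor (1.63%) and CACGTG (7.15%) had no match in any of the 7 windows. Sites more than 250 bases before the start were not searched, so this does not show that any of these genes lacks such a site. The RefSeq start of Jund lies 1210 bases before the start in GENCODE M21, and those of Fosl2 and Atf3 lie 671 and 34706 bases inside the gene, so for these genes the window need not be the promoter that is used in the heart.

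Atf3 (chr1:191170296-191218039, minus strand), a stress-induced factor that can pair with Jun proteins and often represses its targets, was at 3.82, 2.61 and 1.75 CPM in WT sham and at 0.875, 1.83 and 3.43 CPM in WT IR (−0.48, SE 0.42). The highest WT IR library exceeded 2 of the 3 sham libraries. In Zeb2 WT IR it was at 3.23, 2.19 and 1.47 CPM and in mice labelled Zeb2 cTg IR at 1.17, 7.79 and 5.67 CPM. The last group held both the lowest and the highest values of the table, and the log2 fold change of 1.10 (SE 0.55, 95% interval −0.13 to 2.33, adjusted p = 0.250 by edgeR) was not called. Without the filter on low counts its adjusted p was 0.0429, and over all alternatives it ranged from 0.0429 to 0.516.

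Egr1 (34859823 to 34864984 on the plus strand of chromosome 18), a zinc finger factor induced by the same kinase signals as Fos, was at 9.34, 3.40 and 6.87 CPM in WT sham and at 5.0, 13.4 and 5.74 CPM in WT IR. Replicate 2 stood out in WT IR, and the log2 fold change of 0.34 (SE 0.42) became −0.27 without it. Both groups of the other table were higher, at 25.7, 17.3 and 15.6 CPM in Zeb2 WT IR and 9.97, 18.4 and 18.8 CPM in the hearts labelled Zeb2 cTg IR, but levels across tables were scaled separately and were not tested. Between the last groups the log2 fold change was −0.31 (SE 0.26, 95% interval −0.89 to 0.28, adjusted p = 0.489 by edgeR).

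Ier2 (chr8:84661331-84662852, minus strand, a single exon), a small nuclear protein of the immediate early response, had overlapping libraries in both comparisons. It was at 2.87, 1.69 and 2.79 CPM in WT sham and 1.62, 2.04 and 1.60 CPM in WT IR (−0.44, SE 0.23, and −0.15 with the GC correction). It was at 2.57, 2.10 and 1.27 CPM in Zeb2 WT IR and 1.34, 1.95 and 2.84 CPM in mice labelled Zeb2 cTg IR (0.07, SE 0.34, adjusted p = 0.920 by edgeR). Ier2 is, after Jund and Junb, the most GC-rich of the 10 genes at 60.9%.

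Myc (chr15:61985391-61990374, plus strand), which drives ribosome production and cell growth and is induced again in stressed myocardium, had low counts in all groups. It was at 0.908, 0.767 and 0.640 CPM in WT sham, from 24, 25 and 11 counts, and at 1.59, 1.67 and 2.27 CPM in WT IR, from 51, 63 and 61 counts. All injured hearts exceeded all sham hearts, and the log2 fold change was 1.22 (SE 0.23, and 1.19 with the GC correction). In the other table it was at 0.550, 0.202 and 0.633 CPM in Zeb2 WT IR and at 0.754, 0.840 and 0.730 CPM in the hearts labelled Zeb2 cTg IR. These groups did not overlap either, but rest on 5 to 26 counts a library, and the log2 fold change of 0.72 (SE 0.39, 95% interval −0.17 to 1.60, adjusted p = 0.293 by edgeR) was not called.

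**Figure D3:**
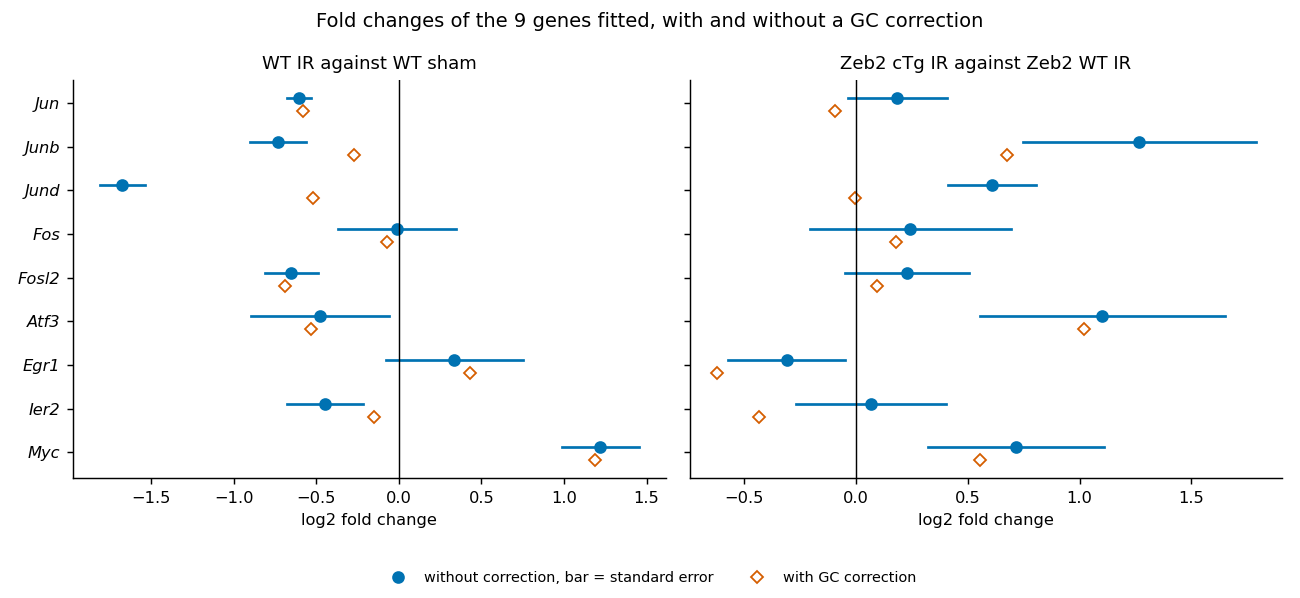
Log2 fold change (x axis) of the 9 genes fitted (y axis) in WT IR against WT sham (left) and in mice labelled Zeb2 cTg IR against Zeb2 WT IR (right). Filled points with a bar of 1 standard error are without a GC correction and open diamonds with it. The correction moves Jund from −1.67 to −0.52 on the left and from 0.61 to about 0 on the right, and leaves Jun, Fosl2 and Myc on the left within 0.05 of their values.

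Set beside each other per kb of exon, the 10 genes had different leaders in different groups and the same 2 genes at the end. These levels are without a GC correction, and the low Jund in WT IR is what the choice of the genes used. With that correction the log2 fold changes of Jund (−0.52) and Jun (−0.58) in WT IR were of similar size, and no corrected order was made. In WT sham Jund led at 7.75 ± 0.28 CPM per kb, followed by Jun at 5.97 ± 0.11, Junb at 2.74 ± 0.60 and Fosl2 at 2.16 ± 0.56, and the libraries of Jund, Jun and Junb did not overlap with those of the next gene down except for Junb with Fosl2. Ier2, Egr1, Atf3 and Fos followed between 1.61 and 1.10 with overlapping ranges, and Myc (0.284 ± 0.049) and Fosb (0.040 ± 0.013) came last, each apart from its neighbours. In WT IR Jun led at 3.93 ± 0.091, apart from Jund at 2.45 ± 0.47, whose libraries overlapped with Egr1 at 1.80 ± 1.04. In Zeb2 WT IR the order was opened by Egr1 (4.36 ± 1.21) and Jun (4.06 ± 0.95), which overlapped, then Fos (2.38 ± 1.37) and Jund (1.93 ± 0.41). In the hearts labelled Zeb2 cTg IR it was Jun (4.61 ± 1.24), Egr1 (3.51 ± 1.12), Jund (2.94 ± 0.26) and Fos (2.81 ± 1.46), each overlapping with the next. Myc and Fosb were last in all 4 groups.

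Mice of 1 group differed far more in some of these genes than in others. The SD of log2 CPM within groups was 0.94 for Atf3, 0.76 for Fosb, 0.73 for Fos, 0.68 for Junb and 0.62 for Egr1, and at least 98% of 12791 genes fitted in both tables, at any level, varied less than each of these. Jund (0.22) and Jun (0.25) lay close to the median gene (0.20). Fosb and Myc rest on few counts, and Junb fell to 14 and Atf3 to 28 counts in a library, whereas Fos had 39 to 260. The part of low counts in these SDs was not tested.

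Of the genes with a wide spread, Egr1, Atf3 and Fosb tended to be high and low in the same mice as Fos. Junb was not seen to follow Fos. Only Egr1 passed the adjusted permutation test by both Pearson's r and rank. Even so, Fos and Egr1 deviated from their group means in opposite directions in replicate 3 of WT sham (−0.16 and 0.19) and of WT IR (0.03 and −0.34). In every other library they deviated in the same direction. How many of all genes followed Fos as closely was not counted. Over the 12 libraries, as deviations from the group means, Egr1 followed Fos with Pearson's r = 0.82 and Spearman's rho = 0.83 (exact permutation within groups, two-sided, p = 0.00231 for both, adjusted p = 0.0208 for both over 9 relations). Without the 2 libraries farthest from the median of Fos, replicate 1 of Zeb2 cTg IR and of Zeb2 WT IR, its r was 0.79. Within the WT table alone it was 0.82 and within the Zeb2 table alone 0.97, where 6 libraries each are too few to pass the adjustment (exact permutation, adjusted p = 0.375 and 0.250). Fosb passed by rank alone (rho 0.81, adjusted p = 0.0347, r 0.71, adjusted p = 0.0712, exact permutation). Atf3 (r 0.81, adjusted p = 0.0625), Fosl2 (0.74, 0.0625) and Ier2 (0.66, 0.0944) had positive values that the exact permutation test did not pass after adjustment. Jun (0.59) lost most of it without those 2 libraries (0.26). Myc (0.28), Jund (0.11) and Junb (0.09) followed Fos little over both tables together, with adjusted p-values of 0.716 to 0.836 in the same permutation test. For Jun and Jund these values pool opposite signs. Their r with Fos was negative within the WT table alone and positive within the Zeb2 table alone.

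**Figure D4:**
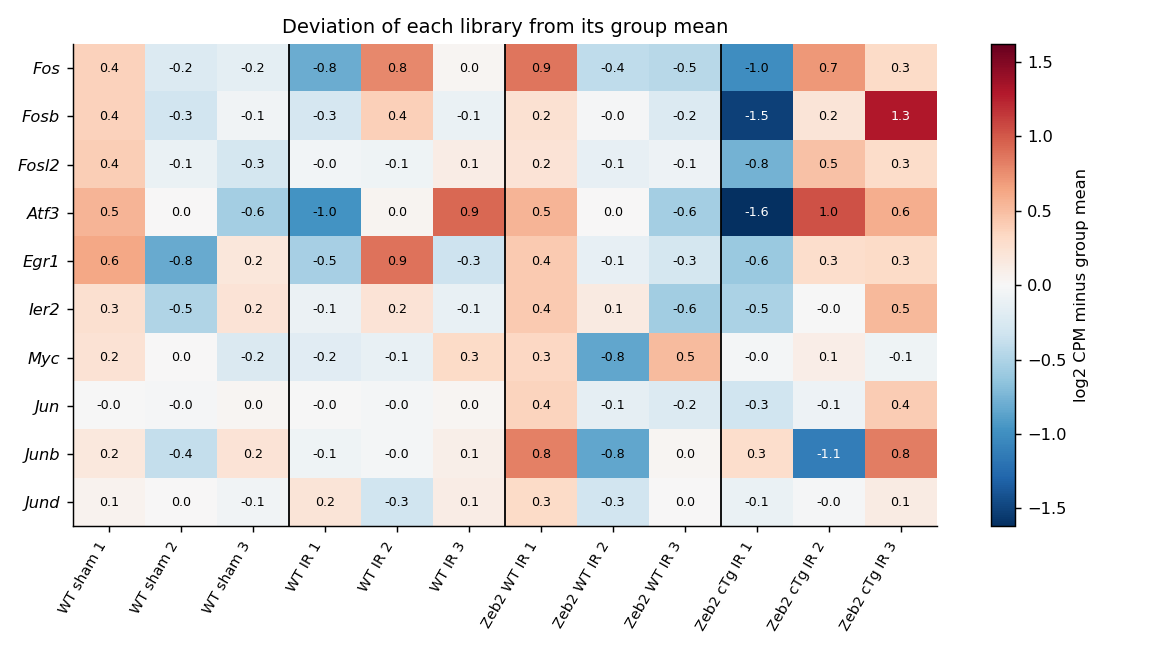
Deviation of log2 CPM from the group mean (colour and printed value) for the 10 genes (rows) in the 12 libraries (columns, black lines between groups). Fos, Fosb, Fosl2, Atf3, Egr1 and Ier2 share blue in replicate 1 of Zeb2 cTg IR and red in replicate 1 of WT sham and of Zeb2 WT IR. Junb (0.81), Jun (0.36), Myc (0.33) and Jund (0.30) are red in replicate 1 of Zeb2 WT IR as well, and Jun (−0.33) is blue in replicate 1 of Zeb2 cTg IR. Jund stays within 0.33 of its group mean in every library.

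By the same measure, and leaving out predicted genes, the 5 of 11993 other genes that followed Fos most closely were Apba1 (r 0.98), Piga (0.92), Kmt2a (0.92), Eif2b3 (0.92) and Tmtc2 (0.90). For Jund they were Cracr2b (0.95), Sec14l1 (0.90), Irf3 (0.89), Rnft2 (0.88) and Ppp2r5b (0.88). These are the highest of many correlations over 12 libraries that share their scaling, and they are given as a description.

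Upstream kinases and factors, related AP-1, ATF and Maf factors, and partners and antagonists of Myc and Egr were listed as well. In each of these lists the share called in WT IR hearts lay near or below the 20.8% of all genes. Over all lists, with the other immediate early genes below, 16 genes were called, 12 higher and 4 lower. With the GC correction there were 13, 9 higher and 4 lower. The values of single list genes are without that correction, and the part of GC content in them was not tested. Of 13 MAP kinases and their targets, 1 rose in WT IR hearts (Rps6ka3, log2 fold change 0.27, SE 0.08, adjusted p = 0.0347) and 1 fell (Map2k2, an activator of ERK, −0.62, SE 0.11, adjusted p = 0.00733), with a median of −0.05 by edgeR. Of 12 factors at serum and cAMP response elements, Elk3 rose (0.40, SE 0.08, adjusted p = 0.0110 by edgeR) and Srf, the serum response factor, fell from 26.2 ± 3.55 to 17.4 ± 2.49 CPM (−0.60, SE 0.13, adjusted p = 0.0129). Of 8 other AP-1, ATF and Maf factors fitted of 13 listed, Maff alone was called (0.77, SE 0.22, adjusted p = 0.0347 by edgeR, higher). Of 10 partners and antagonists of Myc and Egr fitted of 12 listed, the Myc antagonist Mxd4 rose (0.28, SE 0.08, adjusted p = 0.0375 by edgeR) and the Egr corepressor Nab2 fell (−0.46, SE 0.13, adjusted p = 0.0312).

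Among other immediate early genes more were called higher than lower in WT IR hearts, 8 against 1 of 27 fitted of 29 listed (median log2 fold change 0.09), beside 11.0% and 9.74% of all genes. Ccn2, which encodes connective tissue growth factor, was at 25.4, 13.0 and 16.8 CPM in WT sham and at 73.8, 61.0 and 125 CPM in WT IR (2.24, SE 0.30, adjusted p = 0.00366 by edgeR). Every injured heart was more than 2-fold above every sham heart in Ccn2. Gadd45b, a stress-inducible growth arrest gene, rose from 0.809 ± 0.10 to 2.15 ± 0.61 CPM (1.41, SE 0.27, adjusted p = 0.00923 by edgeR), and Egr2 from 0.400 ± 0.17 to 1.06 ± 0.22 CPM (1.33, SE 0.32, adjusted p = 0.0199). Klf6 rose by 0.56 (SE 0.13, adjusted p = 0.0160 by edgeR), and Klf4, a factor induced by shear stress and serum, fell by 0.42 on the log2 scale (SE 0.11, adjusted p = 0.0250).

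In mice labelled Zeb2 cTg IR 1 gene of each of 2 lists was called and none of the others, beside 3.64% of all genes. With the GC correction 4 list genes were called, 2 higher and 2 lower. Mapk10, which encodes the Jun N-terminal kinase JNK3, was at 6.93, 7.69 and 4.80 CPM in Zeb2 WT IR and at 1.01, 1.18 and 1.66 CPM in the hearts labelled Zeb2 cTg IR. It fell by 2.31 on the log2 scale (SE 0.26, adjusted p = 0.00298 by edgeR), and the groups lay far apart. Ier3, an immediate early regulator of cell survival, was at 4.91, 4.98 and 2.83 CPM against 10.7, 12 and 15.2 CPM and rose by 1.58 (SE 0.23, adjusted p = 0.0109 by edgeR). Jun RNA was at overlapping levels in these same libraries, as given above. RNA counts do not measure what the Jun N-terminal kinases do to the Jun protein, and a link between the 2 genes was not tested.

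**Figure D5:**
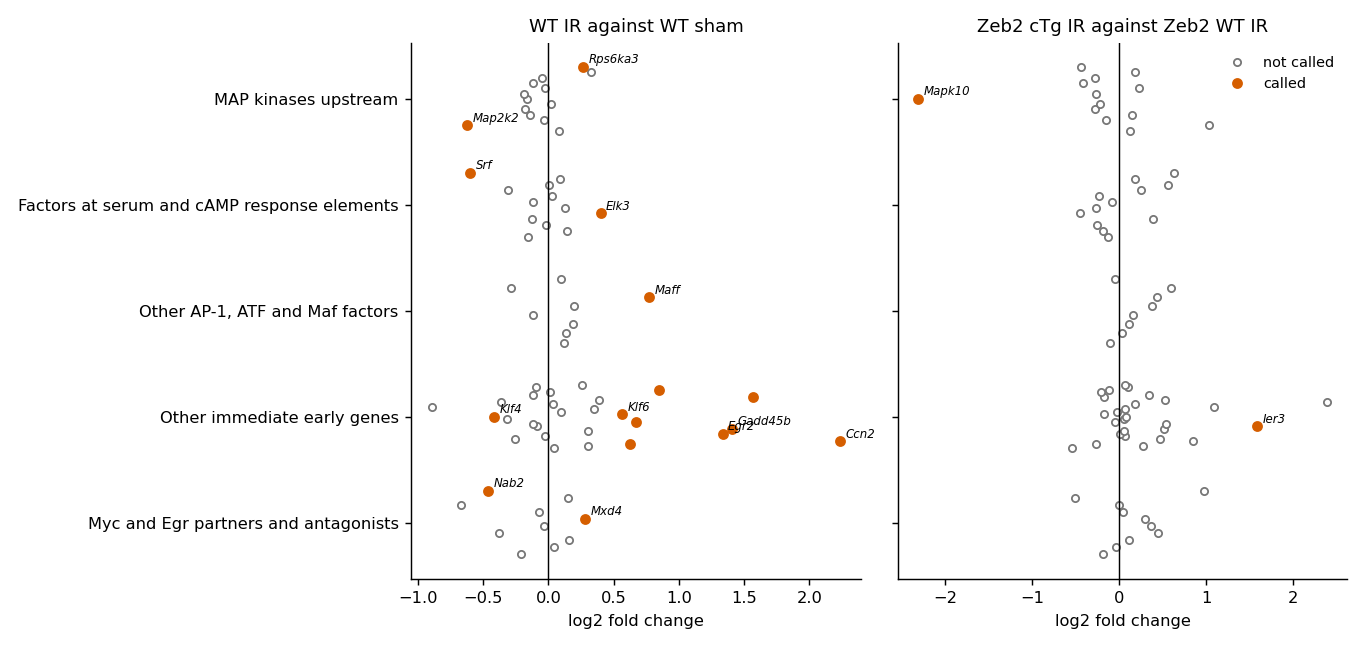
Log2 fold change (x axis) of each fitted gene of the 5 lists of upstream, partner and other immediate early genes (y axis) in both comparisons, with called genes as filled points and the genes of the text by name. Most open points lie close to 0, Ccn2 stands at 2.24 on the left, and Mapk10 at −2.31 and Ier3 at 1.58 on the right.

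Markers of other cell types moved with injury. In WT IR hearts 9 of 10 fibroblast markers were called higher (summed level 536 to 938 CPM in WT sham and 1892 to 4688 in WT IR) and 8 of 10 macrophage markers (159 to 177 and 233 to 441 CPM), whereas 6 of 18 cardiomyocyte markers were called lower (68358 to 75074 and 52534 to 67770 CPM). No endothelial, lymphocyte or neutrophil marker was called (10, 1 and 2 fitted), smooth muscle had 1 higher and 2 lower of 6 and erythrocytes 2 lower of 5. Of the 5 atrial markers listed 2 were fitted and Nppa was called higher, whereas Myl4 was not called. Of the 5 skeletal muscle markers listed only Acta1 was fitted, and it was called higher. A single gene does not show a shift in atrial or skeletal muscle content. In mice labelled Zeb2 cTg IR 3 of 10 fibroblast markers were called lower (932 to 2051 in Zeb2 WT IR and 555 to 681 CPM) and 2 of 18 cardiomyocyte markers higher (66547 to 72057 and 74454 to 78739 CPM). Again single genes were called of the atrial (Nppa, higher), smooth muscle (Acta2, higher) and skeletal muscle markers (Acta1, lower). No macrophage, endothelial, erythrocyte or neutrophil marker was called. No marker of these lists was at 0 in all libraries of a table. In whole tissue fewer cells of a type and less RNA per cell cannot be told apart, and the part of these shifts in the values of the 10 genes was not tested. Scaled to the 18 cardiomyocyte markers in place of all genes, the median gene stood at 0.31 in WT IR hearts and at −0.20 in the hearts labelled Zeb2 cTg IR. On that scale Jund was −1.37, Junb −0.43, Fosl2 −0.33, Jun −0.29 and Myc 1.55 in WT IR, and of the genes of the 5 lists above 24 were called higher and 1 lower, in place of 12 and 4.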

How the data were processed

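RNA from 12 mouse hearts was sequenced as stranded single-end reads. The authors aligned the reads with STAR (2.4.2a in the submitters' processing notes, mm10), counted them per gene (HTSeq 0.6.1 in these notes, GENCODE M4 in the methods) and deposited raw counts without normalization in 2 tables of 38293 genes and 6 libraries each. A total RNA kit is named in the methods and an mRNA kit in the labels. The mice of a group were separate animals. Groups and replicate numbers came from the labels, and all columns were used.

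Both comparisons were fitted separately, by edgeR 4.0.16 under R 4.3.3 (TMM scaling, filterByExpr with a minimum count of 10 and a minimum total of 15, quasi-likelihood test, Benjamini-Hochberg adjustment over all genes, threshold 0.05). The DESeq release of the methods was replaced by this test. Of 38293 identifiers 36429 matched GENCODE M21 (GRCm38), the source of symbols, positions, exon lengths and GC content. Within-group deviations used log2 CPM with a prior count of 2. Single values were compared with exact permutation tests. For the GC correction, deviations of a library were smoothed against GC content by loess (span 0.5), and the curve entered the fit as offsets. Other alternatives were DESeq2 1.42.0, limma-voom (limma 3.58.1), other size factors and filters, no mitochondrial genes, a replicate block, all 12 libraries in 1 fit and each library left out.

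The 10 genes and all lists were chosen with earlier results of these data known. Besides the 10 genes and Zeb2, the text names up to 4 genes per list, comparison and direction with the smallest p-values among those called without overlap, and the 5 genes most like Fos and Jund. Promoters came from RefSeq (GRCm38.p6), and coding sequences were translated with Biopython 1.88.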

Additional observations from a re-analysis of the deposited data

How the results depend on the processing

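With each library left out in turn, between 421 and 4980 genes were called in WT IR against WT sham and 2 to 23 genes of the pathway lists. Of the 10 genes 3 to 5 lay past the same threshold there (5 with all libraries), which is no test, since they were chosen on this contrast. In the transgene comparison 98 to 2419 genes, 0 to 1 of the 10 genes (Junb, without replicate 2 of Zeb2 cTg IR) and 2 to 9 list genes were called. Log2 fold changes there ranged from −0.050 to 0.39 for Jun, −0.12 to 0.82 for Fos, −0.010 to 0.51 for Fosl2 and −0.26 to 0.30 for Ier2. Their direction turned without replicate 2 of Zeb2 cTg IR (Fos −0.12, Fosl2 −0.010), without replicate 3 (Jun −0.050, Ier2 −0.26) and without replicate 3 of Zeb2 WT IR (Ier2 −0.18).

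With cardiomyocyte marker scaling 2 of the 10 genes lay past the threshold in WT IR and 25 list genes were called, and it turned Jun (−0.018) and Ier2 (−0.14) in the transgene comparison. The GC correction turned Jun (−0.092), Jund (−0.0034) and Ier2 (−0.43) there, with 826 genes and 4 list genes called. Without a filter 1553 genes, 2 of the 10 (Junb and Atf3) and 9 list genes were called there, and with DESeq2 1095 genes and 6 list genes. With all 12 libraries in 1 fit 1424 genes and 3 list genes were called in WT IR, with 3 of the 10 past the threshold, and 1932, 1 (Jund, adjusted p = 0.0328, against a range of 0.0328 to 0.994) and 11 in the transgene comparison. The causes of these changes were not tested.

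Whether the replicate numbers pair the mice was not settled, since 3 libraries a group are too few for these correlations to decide it. The correlations of same-numbered deviations were 0.13, 0.26 and −0.042 in the Zeb2 table, with a mean of 0.12. In the WT table their mean was −0.012. Only replicate 2 of the Zeb2 table correlated best with its own number. With the replicate block 1813 genes, 1 of the 10 (Junb, adjusted p = 0.0316) and 10 list genes were called in the transgene comparison. Together with the GC correction the block gave −0.11 for Jun, −0.027 for Jund and −0.45 for Ier2. With a prior count of 0.5, 4 of 9 genes followed Fos at an adjusted p under 0.05, and 0 within the WT table or the Zeb2 table alone. In the WT table alone r was −0.36 for Jun and −0.78 for Jund, whereas both were positive in the Zeb2 table alone. Depth limits Fosb and Myc most, with 1 to 26 and 5 to 63 counts in a library.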
